A study of Rattus norvegicus with 12 samples.

Results

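A set of 8 interferon-induced genes of intracellular defence and antigen processing was followed in terminal end buds of the rat mammary gland. They are Irf1, Gbp2, Ifgga2l1, Psmb8, Psmb9, Tap1, Tap2 and Ubd, 8 of the 11882 genes and unnamed transcripts that could be tested. They were picked with earlier results of these arrays known, in which interferon-induced genes were lower after DES than in oil at 35 days, so the comparisons that use the oil arrays at 35 days describe the genes and carry no test here. Each gene had 1 probe, named through its RefSeq accession. The probes of 7 genes were detected on both arrays of all 6 groups, and that of Tap1 on both arrays of 5.

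Terminal end buds are the club-shaped tips of growing mammary ducts, and they were cut out by laser capture microdissection from glands of inbred female Sprague-Dawley rats. Within 24 h of birth all pups received 1 subcutaneous injection of 0.05 ml sesame oil, and they were weaned at 21 days. Controls received the oil alone, and the other pups received 1 µg or 100 µg of diethylstilbestrol (DES), a synthetic estrogen, in the oil. The glands came from rats aged 35 or 49 days, which gave 6 groups with 2 animals and 2 arrays each, 12 arrays in all. Each array read 1 sample in 1 colour, and levels are given as multiples of the array's median signal. With 2 arrays a group, the number of arrays limits the precision.

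Interferon gamma is a cytokine made mainly by T and NK cells. Its receptor activates the kinases JAK1 and JAK2, and the signal, in part through the transcription factor IRF1 that it induces, switches on genes for GTPases that attack intracellular microbes, for the inducible catalytic subunits of the proteasome, and for the transporter that carries the resulting peptides to MHC class I molecules. Many of these genes also answer to type I interferons, through factors that include STAT2 and IRF9. In the mammary gland, macrophages and lymphocytes lie around and within the growing ducts, beside epithelium that can itself answer to interferon.

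The start regions of 6 of the genes are shown because they carry letters of motifs known from interferon-induced genes. The regions are from RefSeq on the rat build GRCr8, 5′ to 3′ along the gene, 250 bases before to 50 after the annotated start, and all 8 genes had one. Capitals mark TTCNNNGAA, the interferon gamma-activated site (GAS) form, or GAAA, any 2 bases and again GAAA, the interferon-stimulated response element (ISRE) form bound by IRF factors, where a match on the other strand is printed as it reads on this one. Irf1 lies at chr10:38417685-38417984 on the plus strand, Gbp2 at chr2:234005477-234005776 on the plus strand and Ifgga2l1 at chr18:56031657-56031956 on the plus strand. Psmb8 lies at chr20:4656982-4657281 on the minus strand, Tap1 at chr20:4668494-4668793 on the minus strand and Tap2 at chr20:4652247-4652546 on the minus strand.
Irf1: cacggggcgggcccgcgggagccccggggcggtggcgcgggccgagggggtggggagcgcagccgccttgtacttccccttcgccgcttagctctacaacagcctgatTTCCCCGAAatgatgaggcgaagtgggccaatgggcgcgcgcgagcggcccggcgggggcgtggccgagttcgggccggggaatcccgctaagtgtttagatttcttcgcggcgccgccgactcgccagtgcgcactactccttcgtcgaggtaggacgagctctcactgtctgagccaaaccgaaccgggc
Gbp2: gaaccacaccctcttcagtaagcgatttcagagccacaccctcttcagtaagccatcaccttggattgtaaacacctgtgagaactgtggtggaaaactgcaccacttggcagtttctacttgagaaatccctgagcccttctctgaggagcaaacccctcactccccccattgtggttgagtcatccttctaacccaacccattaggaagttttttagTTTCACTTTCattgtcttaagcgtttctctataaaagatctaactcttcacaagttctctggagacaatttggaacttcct
Ifgga2l1: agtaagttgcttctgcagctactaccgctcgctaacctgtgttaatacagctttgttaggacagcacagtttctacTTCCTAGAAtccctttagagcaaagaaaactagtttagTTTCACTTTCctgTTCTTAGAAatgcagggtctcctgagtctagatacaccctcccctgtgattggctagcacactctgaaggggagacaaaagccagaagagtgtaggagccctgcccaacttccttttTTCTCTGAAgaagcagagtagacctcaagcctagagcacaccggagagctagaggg
Psmb8: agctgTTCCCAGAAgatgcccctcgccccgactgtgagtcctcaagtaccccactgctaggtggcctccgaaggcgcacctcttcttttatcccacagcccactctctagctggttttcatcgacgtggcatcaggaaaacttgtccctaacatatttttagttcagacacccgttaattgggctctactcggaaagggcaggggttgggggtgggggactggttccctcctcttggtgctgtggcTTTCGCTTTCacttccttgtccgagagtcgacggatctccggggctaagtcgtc
Tap1: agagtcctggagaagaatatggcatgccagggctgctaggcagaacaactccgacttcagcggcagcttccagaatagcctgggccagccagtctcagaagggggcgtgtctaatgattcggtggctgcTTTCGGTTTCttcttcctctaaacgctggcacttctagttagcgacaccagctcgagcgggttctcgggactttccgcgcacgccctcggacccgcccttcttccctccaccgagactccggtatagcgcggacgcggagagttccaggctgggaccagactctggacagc
Tap2: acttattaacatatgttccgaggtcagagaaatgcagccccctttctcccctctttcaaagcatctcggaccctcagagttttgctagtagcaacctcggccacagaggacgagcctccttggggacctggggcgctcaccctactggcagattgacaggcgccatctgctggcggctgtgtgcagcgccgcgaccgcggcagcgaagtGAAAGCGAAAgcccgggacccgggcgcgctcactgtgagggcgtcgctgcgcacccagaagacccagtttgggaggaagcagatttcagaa

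The GAS form was found in 3 of the 8 regions and in 8.87% of 33469 such regions of rat genes. It began 142 bases before the start in Irf1 and 245 before it in Psmb8, and Ifgga2l1 held 3 matches, at 174, 123 and 6 bases. The ISRE form was found in 5 of the 8 regions and in 3.92% of all. It began 31 bases before the start in Gbp2, 136 in Ifgga2l1, 121 in Tap1, 41 in Tap2 and 4 in Psmb8. In Psmb8 it runs across the start on which the window was set. That start lies inside the span of the gene, which reaches to 4657049, and so does the whole match. No match overlapped another, and the windows of Psmb9 and Ubd held neither form. These are matches of letters only.

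The genes for the inducible proteasome subunits and for the transporter are neighbours. On chromosome 20 of GRCr8 Tap2 (4638257 to 4652296), Psmb8 (4654068 to 4657049), Tap1 (4658171 to 4668543) and Psmb9 (4668952 to 4674421) follow each other within 36165 bases, with no other annotated gene between them. Tap1 and Psmb9 start back to back, with 408 bases between their spans. Their 2 start regions overlap by 44 bases, where the window of Psmb9 was set on a start inside its span. Ubd lies on the same chromosome at 1390734 to 1392685. Irf1 is on chromosome 10, Gbp2 on chromosome 2 and Ifgga2l1 on chromosome 18.

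The arrays themselves differed in depth of signal. The 75th percentile of signal was 155 and 142.5 on the 2 oil arrays at 49 days and 210 to 333 on the other 10. The lowest detected signal was 1.04 and 1.03 times the array median on those oil arrays and 0.214 to 0.368 times on the others, and 47.2% of 20499 probes were detected on both of them, against 57.5% to 61.7% in the other groups. Levels against oil at 49 days carry this difference with them. Epithelial markers were present: Epcam ranged from 567 to 910 times the median over the 12 arrays and Cdh1 from 3.32 to 13.4. The summed basal and myoepithelial markers ranged from 173 to 278, against 744 to 2321 for fibroblast and 308 to 706 for adipocyte markers. These values show epithelium and do not set end buds apart from other gland tissue.

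At 35 days all 8 genes were lower after either dose of DES than in oil, and with 1 µg they ranged from 28.4% of the oil mean for Gbp2 to 91.4% for Tap2. In oil, Gbp2, Ifgga2l1, Tap1 and Ubd were low at 49 days as well, while Irf1, Psmb8 and Psmb9 stayed nearer their level at 35 days. Between the DES groups, only Ubd and Tap2 with 100 µg at 49 days passed the threshold for a difference of dose or age. Others varied without passing: Ifgga2l1 ran from 10.9 to 17.9 times the median over the DES arrays. With 2 arrays a group, such differences cannot be called absent.

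Irf1, the transcription factor, stood at 12.7 and 11.6 times the array median on the 2 oil arrays at 35 days. After DES 1 µg it stood at 8.26 and 8.17, and after DES 100 µg at 8.70 and 8.33. Both doses lay below both oil arrays. At 49 days its levels were 9.45 and 10.8 in oil, 9.03 and 9.19 after 1 µg, and 7.72 and 8.58 after 100 µg. The oil arrays were still the highest of that age, by a smaller margin.

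Gbp2 encodes a guanylate-binding protein, a large GTPase that attacks the membranes around intracellular pathogens. It stood at 44.1 and 35.7 in oil at 35 days, against 13.2 and 9.60 after DES 1 µg and 15.9 and 12.9 after DES 100 µg. Both doses lay far below oil and overlapped each other. At 49 days it was 8.84 and 9.15 in oil, 14.5 and 12.7 after 1 µg, and 12.9 and 10.1 after 100 µg. Oil was now the lowest group, while the arrays of each DES dose overlapped those of the same dose at 35 days.

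Ifgga2l1 is described on the array as similar to an interferon-inducible GTPase. It stood at 39.3 and 31.4 in oil at 35 days, at 15.2 and 13.1 after DES 1 µg and at 11.5 and 10.9 after DES 100 µg. At 49 days the levels were 11.2 and 10.98 in oil, 17.9 and 15.6 after 1 µg, and 14.0 and 14.3 after 100 µg. As for Gbp2, oil went from the highest group to the lowest.

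Psmb8 and Psmb9 encode subunits that replace constitutive catalytic subunits when the immunoproteasome is built. Psmb8 stood at 97.5 and 82.3 in oil at 35 days, at 54.4 and 62.6 after DES 1 µg and at 59.8 and 56.8 after DES 100 µg. At 49 days it was 79.9 and 77.8 in oil, 71.6 and 59.1 after 1 µg, and 59.7 and 79.4 after 100 µg. At 49 days the arrays of 100 µg overlapped both other groups, and those of 1 µg lay below both oil arrays. Psmb9 stood at 305 and 269 in oil at 35 days, at 164 and 138 after 1 µg and at 189 and 183 after 100 µg. At 49 days it was 266 and 260.1 in oil, 164 and 163 after 1 µg, and 173 and 193 after 100 µg. For Psmb9 oil was the highest group at both ages.

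Tap1 and Tap2 encode the partner chains of the transporter that moves peptides into the endoplasmic reticulum. Tap1 stood at 2.41 and 2.68 in oil at 35 days, at 1.28 and 1.19 after DES 1 µg and at 1.14 and 1.57 after DES 100 µg. At 49 days it was 1.29 and 1.17 after 1 µg and 1.54 and 1.70 after 100 µg, and in oil it was not well above background, at 0.689 and 0.758. Tap2 stood at 18.9 and 19.4 in oil at 35 days, at 17.9 and 17.1 after 1 µg and at 17.0 and 17.6 after 100 µg. These ranges lay close together. At 49 days Tap2 was 14.9 and 13.9 in oil, 17.0 and 17.4 after 1 µg, and 23.3 and 26.0 after 100 µg, its highest level. Tap2 was the exception among the 8 genes, the others being highest in oil at 35 days.

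Ubd encodes a ubiquitin-like modifier that sends proteins to the proteasome. It stood at 16.9 and 16.4 in oil at 35 days, at 7.05 and 7.95 after DES 1 µg and at 7.64 and 7.47 after DES 100 µg. At 49 days it was 3.81 and 3.66 in oil, 7.25 and 7.45 after 1 µg, and 3.60 and 4.03 after 100 µg. At that age the arrays of the higher dose overlapped oil, and those of the lower dose stood apart.

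**Figure D1:**
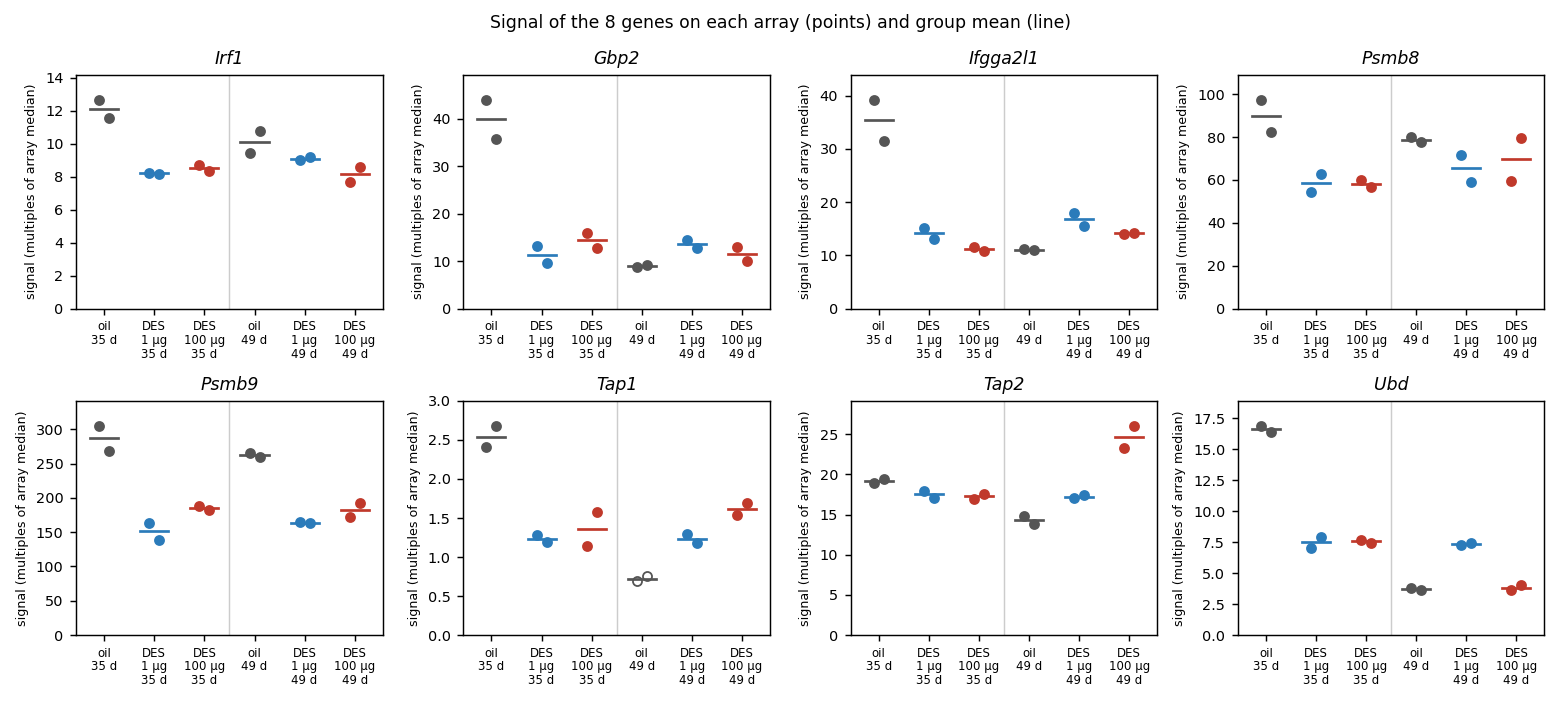
Signal of each gene in multiples of the array median (vertical axis from 0) for the 6 groups, with 1 point per array and a line at the group mean of 2 arrays; open points mark Tap1 in oil at 49 days, not well above background. In 7 of the 8 panels oil at 35 days is the highest group, and Tap2 is highest after DES 100 µg at 49 days.

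The order of the groups followed from these levels. The genes were chosen on comparisons with the oil arrays at 35 days, so their order describes them and carries no test. The share of all genes with oil at 35 days highest and apart was not counted. Oil at 35 days was highest for 7 of the 8 genes, and its arrays overlapped those of no other group in any of these 7. Below it, neighbouring groups often overlapped: for Gbp2 the 3 steps from DES 100 µg at 35 days to DES 1 µg at 35 days could not be separated, and for Psmb8 none of the 4 steps below oil at 49 days could. With the 75th percentile or quantile normalization in place of the median, the highest and the lowest group of all 8 genes stayed as they were, while the full order was kept for 3 and 2 genes.

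Set against oil at 35 days, DES 1 µg gave a median log2 difference of -0.99 over the 8 genes, against -0.03 over all genes tested. In the limma fit, which adjusts p-values over all genes, 6 of the 8 passed the threshold of 0.05 as lower, none as higher and 2 did not pass. Of all genes 7.41% passed, 4.24% as lower. Since the genes were chosen on this contrast, nothing is read from that count. Gbp2 differed by -1.82 ± 0.21 (log2 difference ± SE, n = 2 arrays a group), Ifgga2l1 by -1.32 ± 0.14, Ubd by -1.15 ± 0.11 and Tap1 by -1.04 ± 0.16. Psmb9 differed by -0.93 ± 0.12 and Irf1 by -0.56 ± 0.11, while Psmb8 at -0.62 ± 0.17 and Tap2 at -0.13 ± 0.10 did not pass. In the authors' deposited table of probes that differ at least 2-fold, Gbp2 is at 0.286 of oil, Ifgga2l1 at 0.403, Ubd at 0.452 and Tap1 at 0.487. Irf1 lost its call without any 1 of the 4 arrays compared, and Tap1 without the second oil or the second DES array.

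DES 100 µg, set against the same oil arrays, gave a median log2 difference of -0.77 over the 8 genes, against 0.02 over all genes. It had 4 of the 8 past the threshold as lower, none as higher, and 4 that did not pass, against 1.28% of all genes, 0.875% as lower. Ifgga2l1 differed by -1.65 ± 0.14 on the log2 scale, Gbp2 by -1.47 ± 0.21, Ubd by -1.14 ± 0.11 and Tap1 by -0.92 ± 0.16. The differences of Psmb9 (-0.62 ± 0.12), Psmb8 (-0.62 ± 0.17), Irf1 (-0.51 ± 0.11) and Tap2 (-0.15 ± 0.10) did not pass. In the authors' deposited table Gbp2 is at 0.362 of oil, Ifgga2l1 at 0.32 and Ubd at 0.455. The count was 2 without either oil array of this age, as Gbp2 and Tap1 lost their calls, and each DES array left out cost 1 of these 2. It was 1 with the 35-day arrays fitted alone, and 3 without both oil arrays at 49 days, where Tap1 had an adjusted p of 0.072 in limma.

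In both comparisons all 8 genes had both DES arrays below both oil arrays, as had 26.6% of all genes with 1 µg and 18.5% with 100 µg. The comparisons share their oil arrays, so they are not 2 observations of the difference. A single scan day held 1 oil array and 1 array of DES 1 µg, and within it the 8 log2 differences ran from -0.08 for Tap2 to -1.74 for Gbp2, all below 0. DES 100 µg and oil shared no scan day at 35 days. When scan day entered the fit of the 10 arrays that have one, 1 residual degree of freedom was left, and no gene of the whole array passed at either dose by limma. At an unadjusted p under 0.05 that fit had 7 of the 8 genes for DES 1 µg and 4 of the 8 for DES 100 µg, where 11.2% and 9.65% of all genes had one, with Gbp2 at -1.67 and -1.19. The 8 genes were chosen on these contrasts, so nothing is read from these counts.

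**Figure D2:**
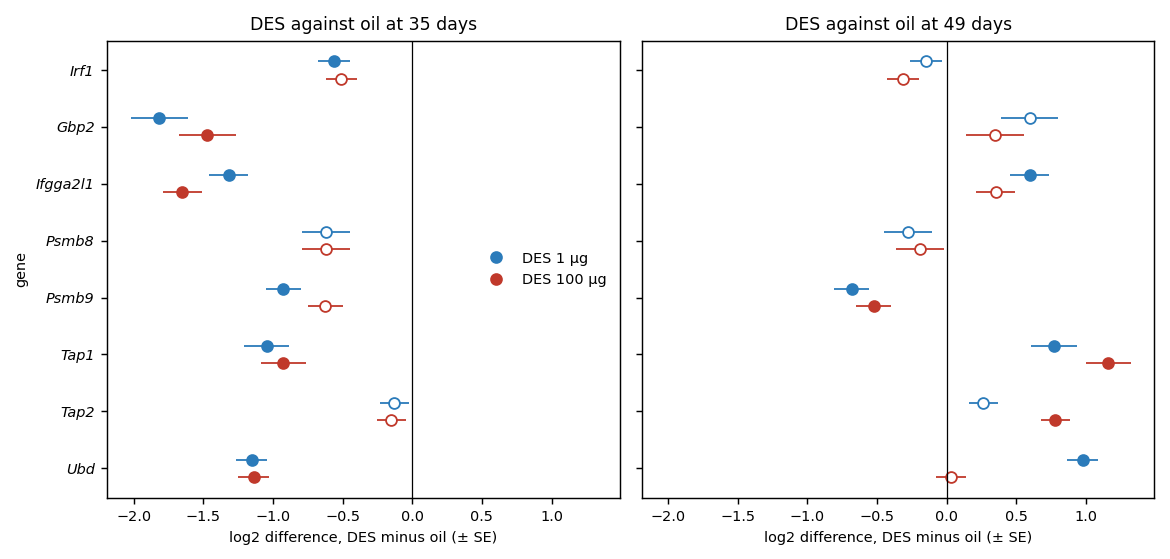
Log2 difference between DES and oil (horizontal axis, bars are ± SE of the limma fit) for each gene at 35 and 49 days, blue for 1 µg and red for 100 µg, filled where the adjusted p passed 0.05. At 35 days every point lies below 0, and at 49 days Gbp2, Ifgga2l1, Tap1, Tap2 and Ubd lie above 0 and Irf1, Psmb8 and Psmb9 below it; Tap1 in oil at 49 days was not well above background, so its points there are fitted values and not sizes.

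The difference between the doses is estimated from DES arrays alone, while its error uses the spread within all 6 groups, oil included. At 35 days none of the 8 genes passed between DES 100 µg and DES 1 µg by limma, while 7.98% of all genes did, and 2 of the 8 had an unadjusted p under 0.05, as had 24% of all genes. The median log2 difference was 0.03 over the 8 genes and 0.05 over all genes. Ubd differed by 0.01 ± 0.11 (95% interval -0.24 to 0.26) and Irf1 by 0.05 ± 0.11 (-0.21 to 0.32). Gbp2 differed by 0.34 ± 0.21 (-0.13 to 0.82), Psmb9 by 0.30 ± 0.12 (0.02 to 0.59) and Ifgga2l1 by -0.33 ± 0.14 (-0.66 to -0.01), with limma adjusted p of 0.35, 0.19 and 0.20. Within the scan day shared by an array of either dose, Psmb9 differed by 0.40 and Ifgga2l1 by -0.27.

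At 49 days 1 gene of the 8 was higher and 1 lower after 100 µg than after 1 µg, against 6.72% of all genes that passed. Ubd fell by 0.95 ± 0.11 on the log2 scale (limma, adjusted p = 0.0026), with 3.60 and 4.03 against 7.25 and 7.45. Tap2 rose by 0.52 ± 0.10 (adjusted p = 0.026), with 23.3 and 26.0 against 17.0 and 17.4. Within the shared scan day Ubd differed by -0.89 and Tap2 by 0.58. With scan day in the limma fit neither passed, Ubd at -0.86 (adjusted p = 0.32) and Tap2 at 0.52 (adjusted p = 0.36). That fit had 1 residual degree of freedom and no gene of the whole array passed, so it cannot decide on these calls. Tap2 lost its call without either DES 1 µg array, without the second DES 100 µg array and without both oil arrays (adjusted p 0.050 to 0.14). The other 6 genes did not pass, the largest being Tap1 at 0.39 ± 0.16 (95% interval 0.02 to 0.77, adjusted p = 0.20).

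Against oil at 49 days the genes parted. After DES 1 µg 3 of the 8 were higher, 1 was lower and 4 did not pass, in a comparison where 31.8% of all genes passed. That share is 3773 genes, and without single arrays 1545 to 2179 passed. Ubd rose by 0.98 ± 0.11 (limma, adjusted p = 0.0011) and Ifgga2l1 by 0.60 ± 0.14 (adjusted p = 0.016). Psmb9 fell by 0.68 ± 0.12 (adjusted p = 0.0063), and Tap1, not well above background in oil, was at least 1.19-fold higher. The limma adjusted p of Tap1, 0.011, belongs to the difference fitted on its signal in oil and not to this bound. Gbp2 differed by 0.60 ± 0.21 with an adjusted p of 0.058, and Irf1, Psmb8 and Tap2 by -0.15, -0.28 and 0.26. The count of 4 was 2 without the first oil array or without the first DES array of that age, as Ifgga2l1 and Tap1 lost their calls, and Ifgga2l1 did so without the second oil array too. With a floor at each array's lowest detected signal Tap1 differed by 0.25 and did not pass.

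After DES 100 µg 2 of the 8 were higher, 1 was lower and 5 did not pass at that age, where 25.2% of all genes passed. That share is 2995 genes, and 1168 to 2477 passed without single arrays and 500 with array signal as a covariate. Tap2 rose by 0.78 ± 0.10 (limma, adjusted p = 0.0026) and Psmb9 fell by 0.52 ± 0.12 (adjusted p = 0.019). Tap1, not well above background in oil, was at least 1.56-fold higher. Its limma adjusted p of 0.0031 belongs to the difference fitted on its signal in oil and not to this bound. Ubd differed by 0.03 ± 0.11 (95% interval -0.22 to 0.28). With quantile normalization neither fall of Psmb9 at 49 days passed, at -0.36 for 1 µg (adjusted p = 0.053) and -0.28 for 100 µg (adjusted p = 0.12). The fall with 100 µg also lost its call without either oil array or without the first DES array (adjusted p 0.077 to 0.11). The median over the 8 genes was 0.43 and 0.19 for the lower and the higher dose, against -0.09 and -0.07 over all genes. Tap1 is listed at 2.24 times oil in the authors' deposited table for DES 100 µg at 49 days. Neither oil array of this age has a known scan day, so scan day and group cannot be told apart there.

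Between the ages more of the genes passed in oil than after DES. In oil 5 of the 8 were lower at 49 than at 35 days and none higher, where 41.7% of all genes passed, 14% as lower. Ubd differed by -2.16 ± 0.11 on the log2 scale, Gbp2 by -2.14 ± 0.21, Ifgga2l1 by -1.67 ± 0.14 and Tap2 by -0.42 ± 0.10, and Tap1 was at least 2.45-fold lower. Irf1 at -0.26 ± 0.11, Psmb8 at -0.18 ± 0.17 and Psmb9 at -0.12 ± 0.12 did not pass. Tap2 lost its call without any 1 of the 4 arrays. The median of all genes moved from 0.16 to 0.01 with 75th percentile scaling and to -0.01 with quantile normalization, and with the latter all 8 genes passed as lower. These differences use the oil arrays at 35 days on which the genes were chosen, and the oil arrays at 49 days with low signal.

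After DES 1 µg none of the 8 genes passed between the ages by limma, while 4.17% of all genes did. At an unadjusted p under 0.05 there were also none of the 8, against 20.9% of all genes. Ubd differed by -0.03 ± 0.11 (95% interval -0.28 to 0.22) and Psmb9 by 0.12 ± 0.12 (-0.17 to 0.41). After DES 100 µg, where 5.93% of all genes passed, 2 of the 8 did. Ubd fell by 0.99 ± 0.11 (limma, adjusted p = 0.0024) and Tap2 rose by 0.51 ± 0.10 (adjusted p = 0.027). Tap2 lost its call without either DES 100 µg array at 35 days, without the second at 49 days, without both oil arrays at 49 days and with quantile normalization, and Ubd with the DES 100 µg arrays fitted alone (adjusted p = 0.099). With scan day in the limma fit neither passed, with an adjusted p of 0.445 for Ubd and 0.467 for Tap2. No gene of the whole array passed there, so that fit cannot decide on these calls.

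The change of the DES effect from 35 to 49 days, which rests on the oil arrays of both ages and is a description here, was past the threshold upward for 4 of the 8 genes with 1 µg, where 20.8% of all genes passed, and for 5 of the 8 with 100 µg, where 9.86% did. The change of the dose difference from 35 to 49 days, whose estimate uses DES arrays alone, passed for Ubd alone of the 8 genes, at -0.96 ± 0.16 on the log2 scale (limma, adjusted p = 0.020), where 2.5% of all genes passed. The changes of Tap2 (0.54 ± 0.15) and Gbp2 (-0.59 ± 0.29) had an adjusted p of 0.11 and 0.31. Without any 1 of 5 of the 8 DES arrays the adjusted p for Ubd was 0.054 to 0.085.

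Other genes of the pathway were counted from 7 lists, written with earlier results of these arrays known. At 35 days 4.24% of all genes passed as lower with DES 1 µg and 0.875% with DES 100 µg. The lists use the same oil arrays, so their counts and p-values at that age describe the genes, and nothing is read from them. Of the ligand, receptor and signalling list 8 of 14 genes were measured, and 3 fell with DES 1 µg and 1 with DES 100 µg at 35 days. The ligand gene Ifng has 1 probe, which was detected on both arrays of no group. The receptor genes Ifngr1 and Ifngr2 differed from oil by -0.18 ± 0.12 and -0.02 ± 0.11 with 1 µg and by -0.06 ± 0.12 and -0.08 ± 0.11 with 100 µg. None of these passed. Stat2 stood at 6.86 and 5.92 in oil, 2.51 and 2.38 after 1 µg and 3.39 and 2.71 after 100 µg, and it fell at both doses (limma, adjusted p = 0.0011 and 0.011).

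Jak2, a kinase of the receptor, fell with 1 µg at 35 days (-1.23 ± 0.18, limma, adjusted p = 0.0053) and differed by 0.24 ± 0.18 with 100 µg. Irf9, the DNA-binding partner of STAT2, differed by -0.49 ± 0.14 and -0.40 ± 0.14 without passing.

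The inducible proteasome genes were set beside the constitutive ones. Of 23 constitutive proteasome genes measured out of 26, none passed at either dose by limma, and 2 and 0 had an unadjusted p under 0.05, against 23.6% and 11.3% of all genes. Their median log2 difference was -0.12 with 1 µg and -0.01 with 100 µg. Psmb7, whose product is a catalytic subunit of the constitutive particle, differed by -0.57 ± 0.16 (adjusted p = 0.066) with 1 µg, Psma2 by -0.25 ± 0.10 and Psmb4 by -0.32 ± 0.15. With 100 µg the smallest p belonged to Psma5 (0.29 ± 0.13), Psmb3 (0.29 ± 0.13) and Psmc3 (0.26 ± 0.17). Psme1 and Psme2, which encode the activator that opens the immunoproteasome, did not pass either: Psme2 differed by -0.46 ± 0.13 and -0.44 ± 0.13, and Psme1 by -0.67 ± 0.32 and 0.07 ± 0.32. At an unadjusted p under 0.05, 1 of these 2 activator genes passed at each dose, Psme2. At 49 days Psme2 stood at 640.2 and 650.3 in oil, 338 and 361 after 1 µg, and 323 and 353 after 100 µg, and it fell at both doses (limma, adjusted p = 0.0031 and 0.0032). Psme1 passed at neither dose at that age, where 31.8% and 25.2% of all genes passed. Of the 23 constitutive genes 5 were lower and none higher there with 1 µg, and 9 were lower and 2 higher with 100 µg.

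In the MHC class I loading list 8 of 16 genes were measured. The share of all genes that passed as lower at 35 days was 4.24% with 1 µg and 0.875% with 100 µg. With DES 1 µg 3 fell: B2m, the light chain of every class I molecule (-1.01 ± 0.12, limma, adjusted p = 0.0019), Tapbp, which holds class I molecules to the transporter (-1.23 ± 0.21, adjusted p = 0.012), and the class I gene RT1-M3-1 (-0.71 ± 0.16, adjusted p = 0.038). With DES 100 µg none of the 8 passed and 1 had an unadjusted p under 0.05, RT1-CE1 at -0.92 ± 0.19. There B2m differed by -0.21 ± 0.12, and its levels were 401 and 401 in oil, 193 and 207 after 1 µg and 376 and 318 after 100 µg. Calr, a chaperone of class I folding, differed by -0.41 ± 0.26 with 100 µg. Class I genes are near-identical copies, so a probe may read several of them.

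Of 5 measured genes for ubiquitin-like modification out of 10, 2 fell at each dose, against 4.24% and 0.875% of all genes. Usp18, a protease that removes the modifier ISG15, stood at 83.6 and 87.4 in oil, 25.6 and 24.0 after 1 µg, and 25.6 and 24.0 after 100 µg (limma, adjusted p = 0.00012 and 0.00061). Uba7, the enzyme that activates ISG15, fell by 1.65 ± 0.12 and by 1.25 ± 0.12 on the log2 scale. Nub1 was not well above background after 1 µg and did not pass, and Ubb, a ubiquitin gene, differed by -0.16 ± 0.21 with 100 µg. Of 8 measured genes among 12 other targets, 4 fell with 1 µg and 2 with 100 µg, beside the same shares of all genes. The chemokine gene Cxcl10 was 18.6 and 21.4 in oil, 1.17 and 1.56 after 1 µg, and 0.684 and 0.926 after 100 µg. Fcgr1a, an Fc receptor of macrophages, fell at both doses (-0.44 ± 0.10 and -0.72 ± 0.10, adjusted p = 0.042 and 0.017). Icam1, an adhesion receptor, fell with 1 µg (-1.04 ± 0.16, adjusted p = 0.0069), as did Gch1, the first enzyme of tetrahydrobiopterin synthesis (-0.48 ± 0.12, adjusted p = 0.046), which differed by -0.49 ± 0.12 with 100 µg without passing.

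Of 19 further interferon-inducible GTPase genes listed, only Igtp and Irgm were measured. Neither passed at 35 days, where Igtp differed from oil by -0.41 ± 0.16 and -0.67 ± 0.16 and Irgm by -0.54 ± 0.20 and -0.33 ± 0.20, and 2 and 1 of them had an unadjusted p under 0.05 by limma. The brighter Igtp probe stood at 36.4 and 27.7 in oil at 35 days and at 13.4 and 14.4 in oil at 49 days, against 18.4 to 24.7 over the 8 DES arrays. At 49 days both genes passed as higher after either dose than in oil, where 31.8% and 25.2% of all genes passed.

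**Figure D3:**
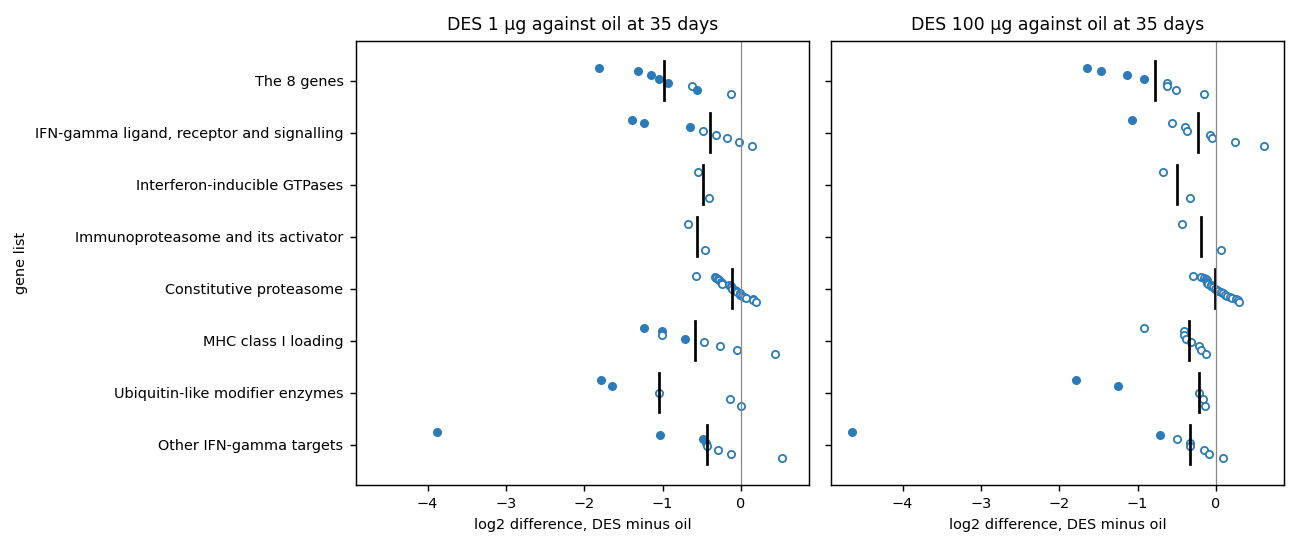
Log2 difference between DES and oil at 35 days (horizontal axis) for the 8 genes and for each measured gene of the 7 lists, 1 point a gene, filled where the adjusted p passed 0.05, with a black line at the list median. The medians for the 8 genes are -0.99 and -0.77, and those of the constitutive proteasome genes -0.12 and -0.01.

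The genes most like the 8 were found by the correlation of their log2 signal with the mean of the 8, each centred on its own mean, over the 12 arrays, among 4265 named genes detected in all groups. They were Lgals3bp (r = 0.95), Coro1a (0.94), Ifi35 (0.94), Irf7 (0.92), Oasl2 (0.89), C2 (0.89), Cmpk2 (0.88) and Dad1 (0.87). Without the oil arrays at 49 days r was 0.85 to 0.96 for these genes. The arrays share their scaling and the high level in oil at 35 days, so r describes the likeness and carries no p. Irf7, a transcription factor of the type I interferon response, averaged 53.9 in oil at 35 days and 9.82 to 14.1 in the other groups. Coro1a, an actin regulator of white blood cells, averaged 23.5 and 14.2 to 17.1, and C2, a complement protein, 42.1 and 17.8 to 30.4. Oasl2 and Ifi35, both induced by interferon, averaged 5.59 and 16.9 in oil at 35 days, against 1.40 to 2.75 and 10.1 to 11.6 elsewhere.

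Some markers of immune cells were lower in the same comparisons. In bulk samples fewer cells of a type and less RNA per cell cannot be told apart. Of the macrophage list 7 of 14 genes were measured, and 1 fell with DES 1 µg and 2 with DES 100 µg at 35 days. Of all genes 4.24% and 0.875% passed as lower in these comparisons. Their summed signal was 334 and 410 in oil, 234 and 243 after 1 µg and 219 and 259 after 100 µg. Mrc1 and Cd163 were detected in no group. Of 15 T and NK cell markers 9 were measured, 3 fell with 1 µg and 2 with 100 µg, and the sums were 11.7 and 12.4, 9.27 and 8.69, and 7.06 and 6.499. Of these 9 genes, 8 were detected in oil, 5 after 1 µg and 6 after 100 µg. Cd3e, Cd2, Cd8a, Cd4 and Klrd1 were detected in no group, and Cd3g was -0.83 ± 0.19 and -1.24 ± 0.19 from oil. Cd3d, at -0.01 ± 0.18 and -0.23 ± 0.18, did not pass, nor did Lck, at 0.18 ± 0.20 and -0.13 ± 0.20. The 1 measured marker of B and plasma cells out of 6, Jchain, stood at 6.67 and 5.88, 3.21 and 2.26, and 2.14 and 1.98, and Cd79b and Ms4a1 were detected in no group. At 49 days the sum of the macrophage markers was 345 to 351 in oil, 312 to 337 after 1 µg and 288 to 315 after 100 µg. The T and NK cell sums at that age were 8.63 and 9.29 in oil, 8.78 and 8.72 after 1 µg and 11.03 and 11.6 after 100 µg. Of the 9 genes summed, 3 were detected in oil, 6 after 1 µg and 8 after 100 µg there, so these sums hold background signal. The part of these markers in the levels of the 8 genes was not tested.

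Stromal and epithelial markers were counted in the same way. At 35 days 5 of 6 endothelial, 3 of 6 fibroblast and 4 of 5 adipocyte markers measured rose with DES 1 µg, and the endothelial sum was 100.4 and 106 against 50.8 and 54.4 in oil. Of all 11882 genes 376 passed as higher and 504 as lower in that comparison. Luminal markers summed to 2177 and 2348 after 1 µg, against 2914 to 3206 in oil, with 1 of 7 lower. Of 5 basal and myoepithelial markers measured, Cnn1 fell with 1 µg (-0.96 ± 0.19, limma, adjusted p = 0.020). The other 4 did not pass, and none of the 5 passed with 100 µg. After 100 µg no endothelial and no adipocyte marker passed by limma. There 1 of 6 fibroblast markers fell, against 0.875% of all genes as lower, and the luminal sum was 2830 to 3035.

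**Figure D4:**
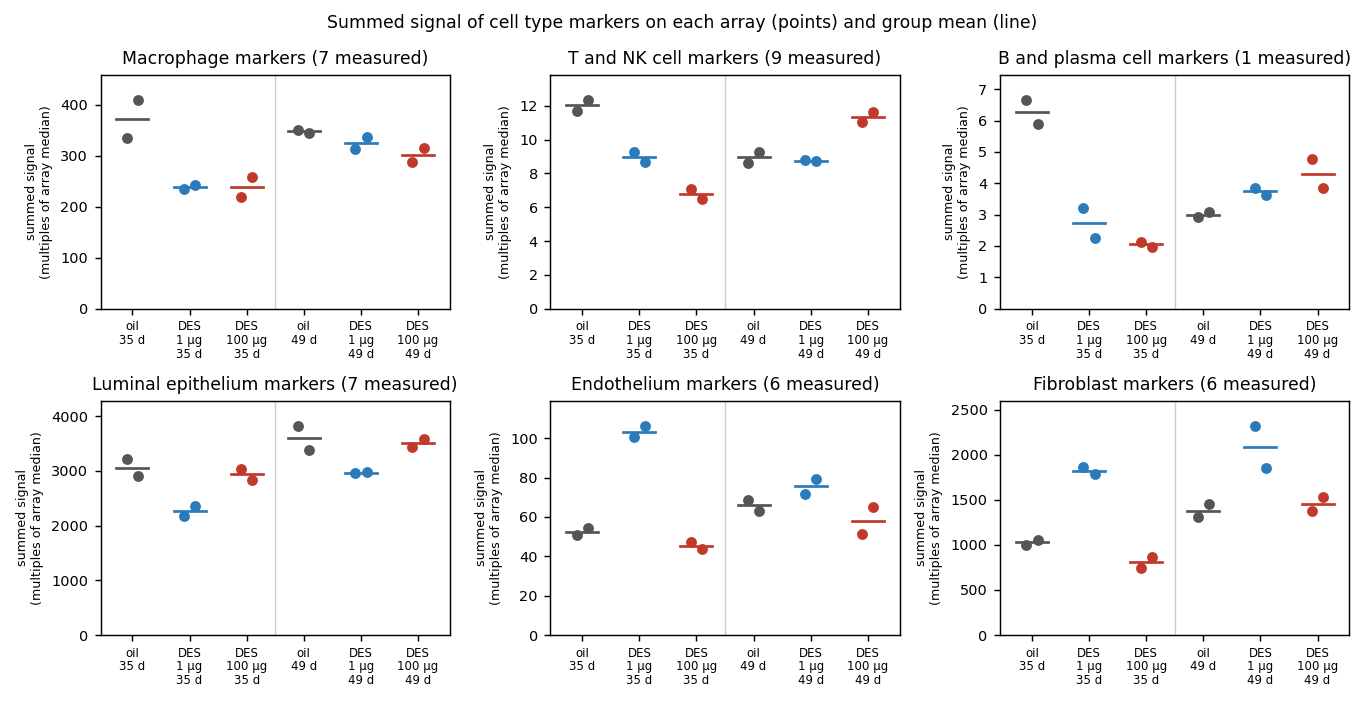
Summed signal of the measured markers of 6 cell types in multiples of the array median (vertical axis from 0), 1 point per array and a line at the group mean of 2 arrays. At 35 days the macrophage, T and NK cell and B and plasma cell panels are highest in oil, and the endothelial and fibroblast panels are highest after DES 1 µg. Sums include markers not detected in a group: in oil at 49 days 3 of the 9 T and NK cell markers were detected.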

How the data were processed

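Gene expression was measured on 12 1-colour Agilent arrays, 2 animals in each of 6 groups. The deposited value table holds the authors' processed signal intensity, which equals the processed signal of the 10 scanner files used here within 0.497%; Feature Extraction 9.1.3.1 was used per the file headers, and the sources used here give no genome build. The authors' deposited fold tables hold ratios of DES to oil of at least 2-fold and were not checked in full. What was checked is the authors' normalized group values, relative to oil at 35 days, for probes detected in both groups. Of 69538 such values, those of oil at 35 days included, 99.99% matched the group means within 0.05 on the log2 scale. For oil at 49 days the value table alone was used.

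Each intensity was divided by its array's median over 20499 non-control probes, raised to at least 0.01 and put on the log2 scale. Probes detected (flagged present or marginal) on both arrays of at least 1 group were kept, 13266 in all, and the brightest probe of each gene gave 11882 rows. Probes were named through RefSeq by accession (6587), symbol (2419) or older symbol (684), and 10809 stayed unnamed. Group means of all 12 arrays were fitted with limma 3.58.1 in R 4.3.3 (6 residual degrees of freedom, empirical Bayes), and p-values were adjusted by Benjamini-Hochberg over all rows with a threshold of 0.05, for 9 comparisons and 3 changes of an effect. The fit was tested on simulated data. Tables were made with Python 3.11.15 and pandas 2.3.3. For a probe not well above background in a group, the bound sets the bright group's mean against the higher of the probe's own signal and the lowest detected signal of each dim array.

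The 8 genes, the 7 pathway lists (100 genes) and the 8 marker lists were chosen with earlier results of these data known. The 8 genes are named in each comparison, with the 3 genes of smallest p of each pathway list at each dose at 35 days, Ifng and B2m, and the 8 genes most like the set; a few genes of the lists are not reported here by name. The receptor genes, Irf9 and Gch1 with 1 µg, Psme1 and Psme2 at 49 days, and the marker genes were named after their values were seen. Alternatives covered scaling, floor, filter, probe choice, arrays fitted, blocks, a covariate and each array left out.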

Additional observations from a re-analysis of the deposited data

Results flagged for a closer look

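The effect of DES 1 µg against oil changed between 35 and 49 days for 4 genes in the limma fit, with changes (log2, effect at 49 minus effect at 35 days) of 2.41 for Gbp2, 1.91 for Ifgga2l1, 1.81 for Tap1 and 2.13 for Ubd. The same change for DES 100 µg passed for 5 genes, at 1.82 for Gbp2, 2.00 for Ifgga2l1, 2.08 for Tap1, 0.93 for Tap2 and 1.17 for Ubd. Each is a difference between 2 ages under the same contrast. The genes were chosen on the effect at 35 days, both doses share the oil arrays, and the oil arrays at 49 days had the low signal given above, so these are descriptions. The values for Tap1 are fitted on oil arrays at 49 days where it was not well above background. The difference between DES 100 µg and DES 1 µg changed between the ages for Ubd, by -0.96 ± 0.16 (limma, adjusted p = 0.020). Its estimate uses DES arrays alone, and its error the spread within all 6 groups.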

How the results depend on the processing

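Over single arrays left out, 445 of 480 log2 differences of the 8 genes kept their side of the threshold and 35 lost their call. Over the other alternatives 968 of 1031 kept it, 36 lost and 27 gained a call. No called difference changed sign, while 24 and 19 differences that did not pass did. With scan day in the fit the counts of genes past the threshold became 0 for both doses against oil at 35 days, for the dose difference at 49 days and for the ages after DES 100 µg. The counts over all genes also became 0 in these comparisons. With only the arrays of the age or treatment compared, they were 1 for DES 100 µg against oil at 35 days, 1 for the doses at 49 days and 0 for the ages after DES 100 µg. Without both oil arrays at 49 days, chosen after seeing the data, they were 1 for the doses at 49 days and 1 for the ages after DES 100 µg. Quantile normalization gave 8 for the ages in oil and 1 for the ages after DES 100 µg, where normexp on the scanner signal also gave 1. Array signal as a covariate gave 1 for the ages after DES 1 µg. Leaving out single arrays gave 4 to 5 for DES 1 µg and 2 to 3 for DES 100 µg against oil at 35 days, 2 to 4 for DES 1 µg against oil at 49 days, 1 to 2 for the doses at 49 days, 1 to 2 for the ages after DES 100 µg and 0 to 1 for the change of the dose difference. The cause was not tested. Over all genes the count for DES 1 µg against oil at 35 days was 880, and 331 with that age alone, 1662 with the covariate and 342 to 698 without single arrays; for DES 100 µg it was 152, and 25, 267 with the floor at the lowest detected signal, and 52 to 75. Without single arrays the counts over all genes were 446 to 906 in place of 948 for the doses at 35 days, 252 to 525 in place of 799 for the doses at 49 days, 2729 to 3667 in place of 4952 for the ages in oil, 127 to 304 in place of 496 after DES 1 µg and 188 to 772 in place of 705 after DES 100 µg. With the covariate 2068 genes passed for DES 1 µg against oil at 49 days, 1807 for the doses at that age, 1036 for the ages in oil and 1902 for the ages after DES 1 µg. The share of calls that were higher went from 66.4% to 49.8% (75th percentile) and 48.2% (quantile) for the ages in oil, from 39.9% to 53.2% and 55.2% for DES 1 µg and from 43.5% to 58.0% and 56.8% for DES 100 µg against oil at 49 days, from 42.7% to 52.8% and 47.8% for DES 1 µg at 35 days, and from 80.6% to 63.3% and 69.7% and from 74.8% to 61.5% and 60.7% for the ages after the lower and the higher dose. Whether replicate numbers pair the arrays was not settled. Over 15 pairs of groups the correlation of same-numbered deviations ran from -0.12 to 0.43, and 6 were over 0.1. With the replicate number as a block the count was 5 in place of 4 for DES 1 µg against oil at 49 days, where Gbp2 passed, as it did in 6 of 11 settings other than leaving out an array. Over those other settings the count reached 7 for DES 1 µg and 5 for DES 100 µg against oil at 35 days, 6 and 4 at 49 days, and 3 for the doses at 49 days. Genes dimmer than the lowest detected signal of the oil arrays at 49 days, such as Tap1, have only a bound there.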
